A study of Rattus norvegicus with 14 samples.

Results

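The regions described here were those whose Methyl-Seq signal differed most between individual control rats. Of 310070 regions in the table, 145002 lay on chromosomes 1 to 20 and held, summed over all animals, at least as many sequenced tags as the median region of the table. The members were the 0.5% of these, 725 regions, with the largest standard deviation (SD) of log2(CPM + 0.5) over 5 control animals, where CPM is tags per 1000000 tags of the animal. The members were thus chosen by the control values, which are given below as a description and without a test. The pilocarpine animals entered the choice through the sum of tags and not through the SD. At 67 members (9.24%, against 3.92% of all regions) the CTRL animals had fewer tags per animal than the sum asked for, so that these passed through the pilocarpine animals.

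The animals were 14 male Wistar rats, an outbred stock, from which dorsal hippocampus was taken at the end of an 84-day observation period. CTRL rats (n = 5) received methyl scopolamine and saline and a standard diet. PILO rats (n = 4) received methyl scopolamine and then pilocarpine (340 mg/kg), which induced status epilepticus and was followed by chronic epilepsy on a standard diet. PILO + KD rats (n = 5) received the same injections and were fed a ketogenic diet, rich in fat and poor in carbohydrate. Rats in which the initial dose of pilocarpine did not induce status epilepticus received a further, lower dose, and the paper does not name them. Diazepam and later glucose were injected after status epilepticus, so CTRL rats differed from the pilocarpine rats in these too. The rats were described as age matched without an age being given, each rat gave 1 library, and no animals were pooled. Replicate numbers are those of the labels, PILO has no replicate 1, and the fifth PILO + KD animal carries the number 211.

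Most CpG dinucleotides in mammalian DNA carry a methyl group on the cytosine, and in brain tissue the pattern of methylation helps to hold cell types in their state. In Methyl-Seq, sheared DNA is bound to a methyl-CpG binding protein on beads, washed, eluted and sequenced, so that a region gains tags as more methylated DNA is present. A tag count alone cannot tell a difference in methylation per copy apart from a difference in the number of DNA copies, in how well the reads of an animal align to the reference sequence, or in the mix of cells in the tissue.

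The libraries of CTRL held 8411986 to 10559592 tags, those of PILO 6972700 to 12391666 and those of PILO + KD 8286533 to 10106466. At these depths 1 tag was worth 0.0807 to 0.143 CPM, and a region with no tag could have held up to 3 tags by counting error alone. The labels begin with the letters FC and 1 of 4 numbers. This number is read here as a flow cell, a meaning that the labels do not state. The largest such flow cell held 8 libraries (3 CTRL, 3 PILO and 2 PILO + KD). Positions are those of the rn4 genome as deposited, with no statement on whether starts count from 0 or 1. Genes, exons and the base sequence at these positions were not analysed here.

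The SD among CTRL animals had a median of 1.03 over the members, with quartiles of 0.945 and 1.18 and a maximum of 2.76. Over all 145002 regions the median was 0.283. The threshold fell in a dense part of the distribution. The last member inside it, chr17:14712787-14713396, had 30, 16, 1, 8 and 12 tags in CTRL replicates 1 to 5 (SD 0.899488). The first region outside, chr13:66398779-66399080, had 23, 7, 0, 10 and 11 tags (SD 0.899371). In both, replicate 1 was the highest and replicate 3 the lowest, and all animals had few tags.

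Members had less signal than the other regions. Their mean over 14 animals had a median of 1.67 CPM, against 3.0 CPM over all regions, and their median length was 705 bp against 781 bp. When the 145002 regions were divided into 4 equal classes by summed tags, the class with fewest tags held 343 members (0.946% of it), the next classes held 248 (0.684%) and 86 (0.237%), and the class with most tags held 48 (0.132%). The lowest mean belonged to chr18:18749896-18750422 (0.942 CPM), with 25, 10, 0, 4 and 6 tags in CTRL. The highest belonged to chr2:252850119-252864200 (180 CPM), with 3336, 5204, 390, 354 and 463 tags. The part of counting error in the spread therefore differed widely between members, and under a choice by variance relative to counting variance 182 of the 725 members were chosen again.

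The 6 members with the largest SD among CTRL animals come first. At chr6:136872104-136875127 (SD 2.76), 3023 bp long, CTRL replicates 1 to 5 had 297, 158, 1, 2 and 2 tags. PILO replicates 2 to 5 had 77, 319, 3 and 82 tags there, and PILO + KD replicates 1 to 4 and animal 211 had 2, 172, 141, 143 and 2. Each group held animals with 1 to 3 tags and animals with at least 77, with no animal between, so the 3 groups overlapped across the whole range.

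At chr4:4659968-4660996 (SD 2.35) CTRL animals had 156, 4, 1, 1 and 109 tags. PILO animals had 117, 144, 72 and 2 tags, and PILO + KD animals had 3, 3, 1, 178 and 115. Again each group fell into animals with 4 tags or fewer and animals with 72 or more.

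At chr6:1147673-1148538 (SD 2.07) the low animals were fewer. CTRL animals had 116, 5, 130, 168 and 8 tags, PILO animals 103, 1, 148 and 107, and PILO + KD animals 117, 138, 9, 89 and 120. The 4 low animals had 9 tags or fewer and the other 10 had at least 89.

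The members at ranks 4 and 6, both on chromosome 3, differed between groups in how many animals were low. At chr3:99692805-99693652 (SD 2.08) CTRL animals had 79, 0, 2, 0 and 68 tags, PILO animals 0, 0, 0 and 1, and PILO + KD animals 0, 2, 1, 55 and 0. High counts appeared in 2 CTRL animals and in 1 PILO + KD animal. At chr3:146587171-146588064 (SD 2.06) CTRL animals had 76, 1, 0, 52 and 0 tags, PILO animals 208, 131, 78 and 149, and PILO + KD animals 0, 176, 76, 59 and 1. All 4 PILO animals were high, and CTRL and PILO + KD were mixed. The member at rank 2, chr4:179951866-179952254, is described with its neighbours below.

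**Figure D1:**
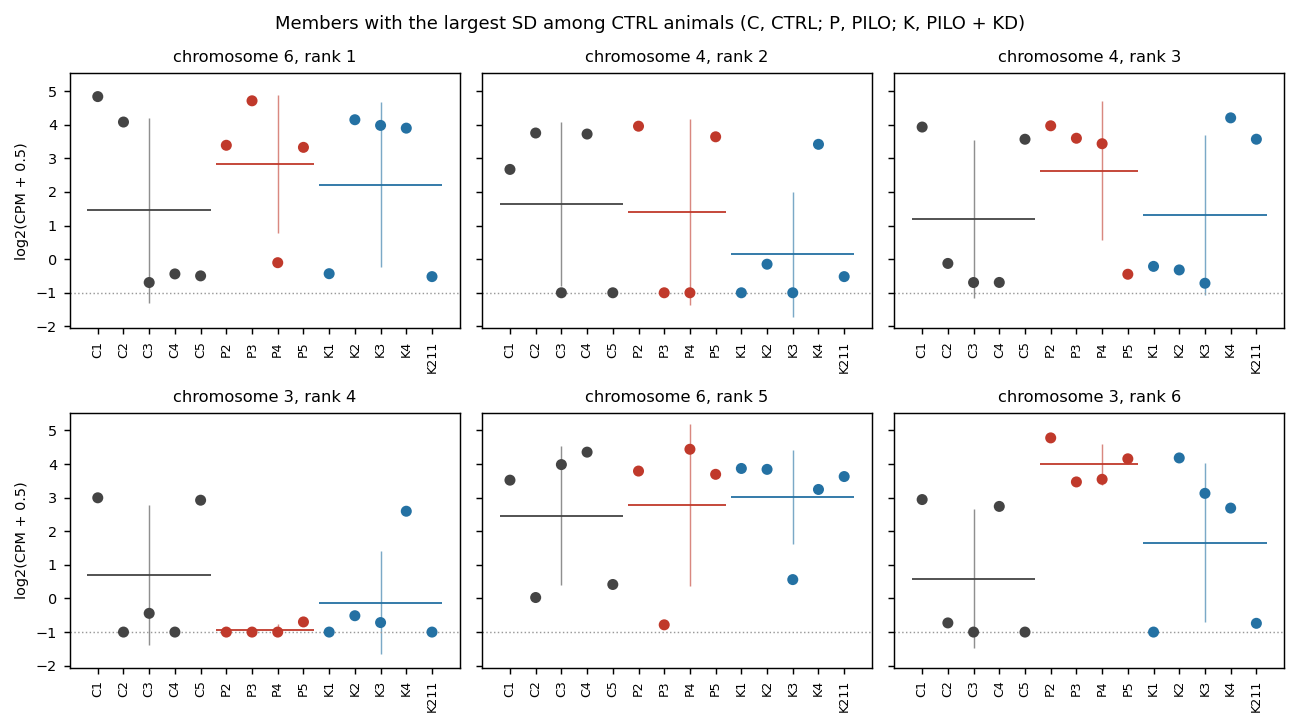
Signal of each animal, as log2(CPM + 0.5), at the 6 members with the largest SD among CTRL animals (ranks 1 to 6). Points are animals, horizontal lines are group means, vertical lines span 1 SD to each side, and the dotted line marks 0 tags; within most groups the animals lie near the top or near the bottom of the panel and few lie between.

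Which CTRL animals were high or low was described by the largest gap between neighbouring values, which divides the 5 animals into a low and a high set. The low set was a single animal at 291 members (40.1%), 2 animals at 188 (25.9%), 3 animals at 165 (22.8%) and 4 animals at 81 (11.2%). Over all regions the same division gave 33.5%, 20.7%, 21.1% and 24.6%. The median gap at the members was 2.94-fold where 1 animal was low and 2.57-fold, 2.65-fold and 2.71-fold where 2, 3 or 4 were low, on the scale of CPM + 0.5. All 30 possible low sets occurred.

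The CTRL animals did not take part equally. CTRL replicate 3 was alone in the low set at 119 members, replicate 4 at 68, replicate 2 at 54, replicate 5 at 26 and replicate 1 at 24. Alone in the high set were replicate 1 at 35 members, replicate 2 at 29, replicate 4 at 8, replicate 3 at 6 and replicate 5 at 3. Single animals far above the rest were thus mostly replicates 1 and 2, and single animals far below were mostly replicates 3, 4 and 2. Replicates 3 and 4 were also the CTRL libraries with fewest tags (8478079 and 8411986), and replicate 1 had most (10559592). Replicates 2 and 5 had similar depths (9614338 and 9584843) but were alone low at 54 and 26 members. The part of sequencing depth in these counts was not tested.

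The levels of the CTRL animals over the members moved with this. The median over the 725 members was 2.56 CPM in CTRL replicate 1, 1.56 in replicate 2, 0.708 in replicate 3, 1.55 in replicate 4 and 1.46 in replicate 5. Over all 145002 regions the medians of these animals lay between 2.95 and 3.31 CPM. In the pilocarpine animals the medians over the members ranged from 1.43 to 1.86 CPM in PILO and from 1.21 to 1.95 CPM in PILO + KD. CTRL replicate 3 had no tag at 97 members, the other CTRL animals at 21 to 66, and the pilocarpine animals at 8 to 32. By the flow cell numbers read from the labels, CTRL replicate 1 shared its flow cell with 1 PILO + KD library. CTRL replicates 2, 3 and 4 shared the largest flow cell. With these 3 CTRL animals alone, the rule chose 476 of the 725 members again.

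**Figure D2:**
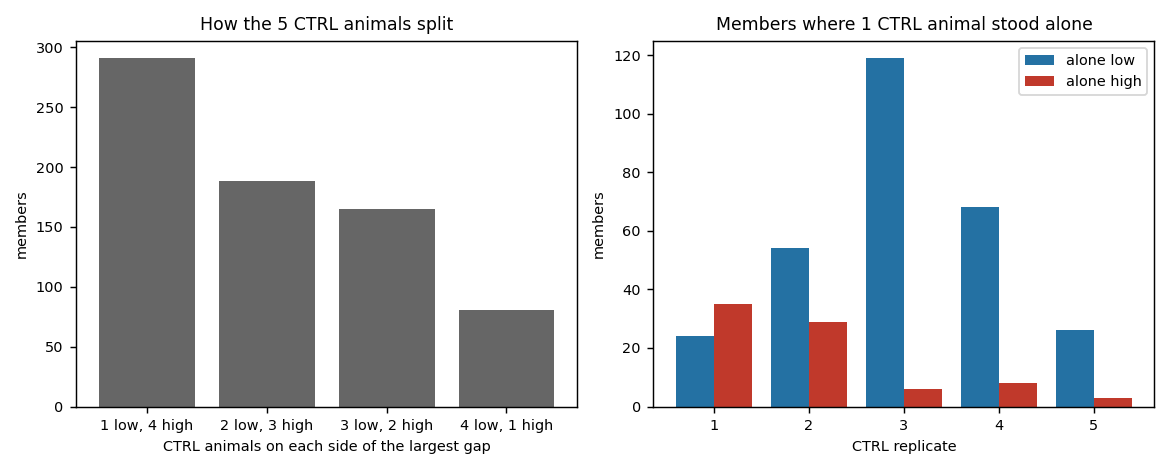
Number of members (left) by how many of 5 CTRL animals lay below and above the largest gap, and (right) at which each CTRL replicate stood alone on the low or the high side. A single low animal is the commonest division (291 members), and replicate 3 stood alone low most often (119 members).

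The member with the widest gap was taken for each size of low set. The widest with 1 low animal was chr5:168727248-168732825 (5577 bp), where CTRL animals had 441, 358, 11, 291 and 383 tags, a gap of 19.5-fold. PILO animals had 14, 435, 15 and 18 tags there, and PILO + KD animals had 15, 22, 25, 23 and 23. The other 4 CTRL animals and 1 PILO animal were high, and the other 9 animals had 25 tags or fewer.

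The widest gap with 4 low animals was 21-fold, at chr9:74425046-74425852. CTRL animals had 0, 0, 0, 84 and 0 tags, PILO animals 1, 0, 65 and 0, and PILO + KD animals 0, 1, 0, 1 and 0. Only 1 animal in CTRL and 1 in PILO carried nearly all tags of this region. For 2 and 3 low animals the widest gaps were at the members of ranks 2 and 1, with 12.7-fold and 23.0-fold.

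Whether a member's spread was particular to the CTRL animals was described with the pilocarpine animals, whose values did not enter the SD of the rule. Their spread was the pooled within-group SD of 4 PILO and 5 PILO + KD animals. Its median was 0.691 over the members (standard error 0.0292, jackknife over animals), against 0.343 over all regions. With the sum of tags taken over CTRL alone, an alternative added after seeing the data that left the pilocarpine animals out of the choice, 647 of the members were chosen again, and the medians were 0.682 over 731 chosen regions and 0.344 over all. Within PILO alone the median SD was 0.647 against 0.307, and within PILO + KD alone it was 0.631 against 0.334. Members thus had about the same excess of spread in both pilocarpine groups as each other.

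The excess appeared in each class of signal. In the class with fewest tags the median pilocarpine SD was 0.646 for members and 0.436 for all regions, a ratio of 1.48. The ratio was 1.83 and 2.16 in the next classes and 4.66 in the class with most tags, where the medians were 1.13 and 0.241. Tags relative to counting variance gave the same order, with a median dispersion index in the pilocarpine animals of 5.25 over the members and 2.27 over all regions, where an index of 1 is counting error alone.

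Of the 725 members, 229 (31.6%) were also among the top 0.5% of all regions by pilocarpine SD, and 427 (58.9%) were in the top 5%. Within single groups, 172 members (23.7%) were in the top 0.5% in PILO and 196 (27.0%) in PILO + KD. At the other end, 54 members (7.45%) had a pilocarpine SD below the median of all regions. Those members varied widely among the CTRL animals and no more than a typical region among the pilocarpine animals.

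The largest pilocarpine SD of any member was 2.38, at chr20:19201097-19202137. CTRL animals had 72, 80, 70, 64 and 2 tags there, PILO animals 111, 0, 108 and 114, and PILO + KD animals 0, 98, 93, 0 and 70. In each group 1 or 2 animals were at 2 tags or fewer and the others had at least 64.

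**Figure D3:**
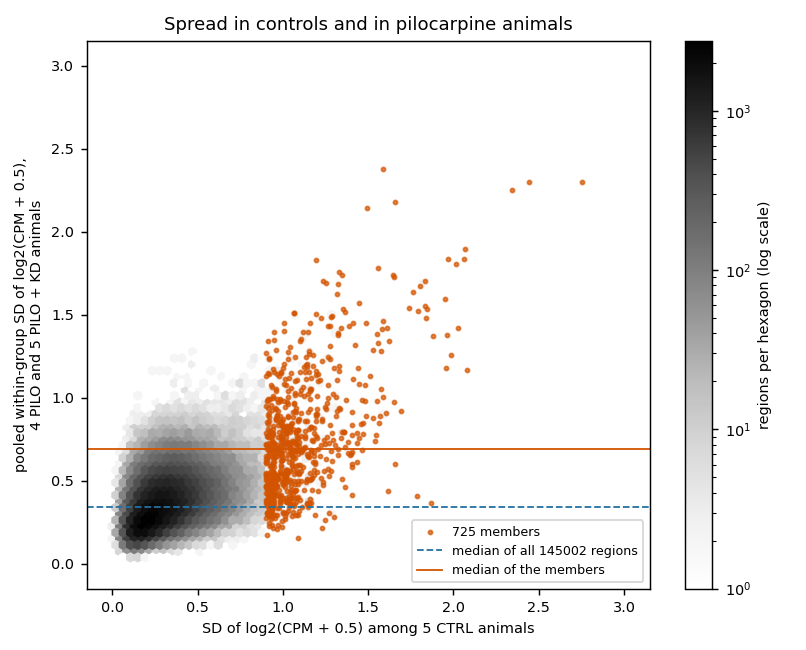
SD of log2(CPM + 0.5) among 5 CTRL animals (horizontal axis) against the pooled within-group SD of 4 PILO and 5 PILO + KD animals (vertical axis), with all 145002 regions as grey hexagons and the 725 members as orange points. The members start at a CTRL SD of 0.899 because of the rule, and their median pilocarpine SD (0.691, solid line) lies above that of all regions (0.343, dashed line).

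Regions present in some animals and nearly absent in others were counted directly. At 185 members (25.5%) at least 1 pilocarpine animal had 3 tags or fewer while another had 30 or more, against 1885 of all regions (1.30%). Members made up 9.81% of those 1885 regions. At 138 members (19.0%) the 9 pilocarpine animals had a gap of at least 2-fold with 2 or more animals on each side, against 420 of all regions (0.290%). Members made up 32.9% of those 420 regions. A gap of at least 4-fold of this kind was found at 33 members (4.55%) and at 41 regions in all (0.0283%), so that 80.5% of such regions were members. The 41 regions that divided the pilocarpine animals by a gap of at least 4-fold were therefore mostly members. Most regions that met the limits of 3 and 30 tags in the pilocarpine animals were not members.

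The values of the pilocarpine animals were then placed relative to the gap among the CTRL animals. The limits of 4-fold and 8-fold were chosen after the values were seen. At 116 members the gap was at least 4-fold, and at 94 of them (81.0%) pilocarpine animals lay on both sides of its middle. At 21 of the 116 all 9 pilocarpine animals lay above the middle, and at 1 they all lay below. Regions with few tags in all pilocarpine animals are less likely to reach the sum of tags, which acts on this difference. With the sum taken over CTRL alone the numbers were 20 and 1 of 117. Of the PILO values 35.8% lay below the middle, and of the PILO + KD values 35.2%, while 41.9% of the CTRL animals were in the low set.

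Of the 1044 pilocarpine values at these 116 members, 43.7% lay between the 2 CTRL sets, and 12.4% lay in the middle 50% of the gap on the log2 scale. Most values between the sets thus lay in the outer parts of the gap. At the 18 members with a gap of at least 8-fold, pilocarpine animals lay on both sides at 16 (88.9%), while 32.7% of 162 values lay between the CTRL sets and 1.23% fell in the middle 50%. No animal was low throughout, and the share of the 116 members at which an animal was low ranged from 28.4% (PILO replicate 5 and PILO + KD replicate 2) to 53.4% (CTRL replicate 4).

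Members were found on all 20 autosomes, at 0.736% of the regions of chromosome 4, 0.734% of chromosome 20 and 0.723% of chromosome 12, and at 0.266% of those of chromosome 19. Of 522 windows of 5 Mb, 205 held no member. Most members in a window, 19 of 524 regions (3.63%), lay between 135 and 140 Mb on chromosome 6. The next window, with 10 of 472 regions (2.12%), was the first 5 Mb of chromosome 20, the end of the chromosome near which the rat major histocompatibility complex lies.

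Members were more often next to each other than regions in general were next to a member. A neighbour here is the adjacent region within 10 kb. Of the 725 members, 31 (4.28%) had a member as neighbour, against 793 of all regions (0.547%), although similar shares had any neighbour (76.3% and 77.5%). The other neighbours of members were close to the background, since the 762 non-member neighbours had a median CTRL SD of 0.308 against 0.283.

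Whether neighbours varied together was described by Pearson's r over 9 pilocarpine animals, each centred on its group mean, so that neither the CTRL values nor the group differences entered. The points of each r share libraries and depth, and regions side by side may share DNA fragments. Adjacent pairs of members had a median r of 0.927 (16 pairs), and 10 of these pairs were above 0.8. Pairs of a member and a non-member had a median r of 0.0840 (767 pairs), below that of all adjacent pairs (0.204, 84512 pairs). A member's variation was therefore mostly not seen in the adjacent region unless that region was a member too.

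Co-variation fell with distance. The median r was 0.846 for the 20 pairs of members up to 10 kb apart, 0.611 for 63 pairs at 10 to 100 kb and 0.260 for 411 pairs at 100 kb to 1 Mb. The quartiles at 10 to 100 kb were -0.0978 and 0.831, so that pairs varying together stood beside pairs that did not. A block of 11 members on chromosome 6, described below, gave 47 of the 411 pairs, and without them the median at 100 kb to 1 Mb was 0.145 (364 pairs). Without its 6 pairs at 10 to 100 kb the median there was 0.555 (57 pairs). All pairs of regions at these distances had medians of 0.205, 0.165 and 0.141, so that beyond 100 kb the members outside this block were near the level of all regions. Members more than 1 Mb apart on a chromosome (0.0456, 14575 pairs) and members on different chromosomes (0.0415, 247381 pairs) had medians near 0.

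**Figure D4:**
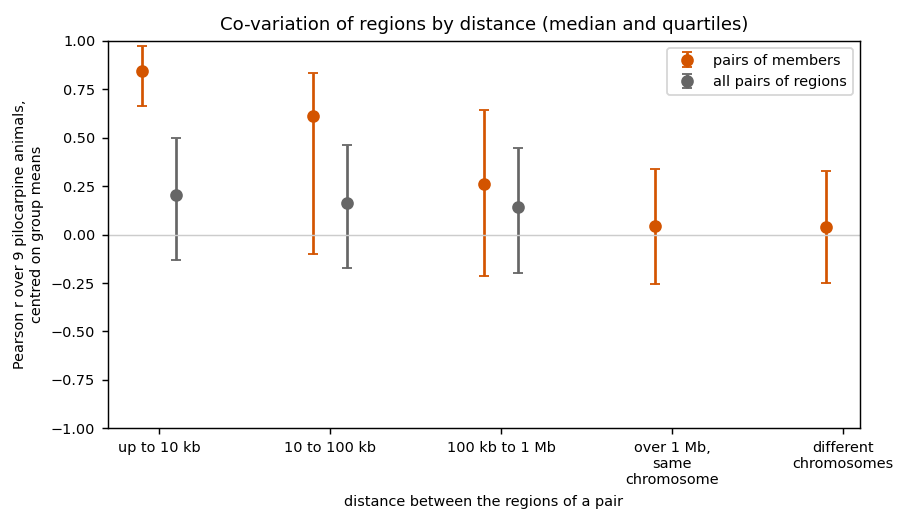
Pearson r between pairs of regions over 9 pilocarpine animals centred on group means, by distance, as median (points) and quartiles (bars), for pairs of members (orange) and, up to 1 Mb, all pairs of regions (grey). The median for members falls from 0.846 up to 10 kb to 0.0415 on different chromosomes.

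Members within 10 kb of the next member formed 19 runs with 39 members in all, 18 runs of 2 and 1 run of 3. In 13 runs the same CTRL animals made up the low set at each member. In 15 runs every r between consecutive members was above 0.5 in the pilocarpine animals. The exception in sign was chr13:79701852-79705327, where r was -0.337 in the pilocarpine animals and -0.871 in CTRL, so that animals high at 1 of its members tended to be low at the other.

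The run of 3 members spanned chr4:179951866-179964669. At its first member, chr4:179951866-179952254 (388 bp, rank 2, SD 2.44), CTRL replicates 1 to 5 had 5.87, 13, 0, 12.7 and 0 CPM, PILO animals 15, 0, 0 and 12 CPM, and PILO + KD animals 0, 0.401, 0, 10.2 and 0.198 CPM. At the second, chr4:179956487-179956916, CTRL animals had 3.31, 6.34, 0, 6.89 and 0 CPM, PILO animals 7.52, 0.0807, 0 and 7.1 CPM, and PILO + KD animals 0.121, 0.301, 0, 5.75 and 0.297 CPM. The 6 high animals were the same at both, namely CTRL replicates 1, 2 and 4, PILO replicates 2 and 5 and PILO + KD replicate 4.

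The last member of this run, chr4:179962561-179964669, differed in having signal in all animals. CTRL animals had 24, 47.6, 12.9, 49 and 9.91 CPM, PILO animals 53.7, 10.4, 10 and 49.4 CPM, and PILO + KD animals 16.5, 14.6, 11.5, 41.7 and 10.8 CPM. The same 6 animals were the highest, with at least 24 CPM against at most 16.5 CPM in the others. Over the 9 pilocarpine animals r between consecutive members of the run ranged from 0.976 to 0.997, and the first and last members were not compared.

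The run at chr2:252843235-252864200 held 2 members, the longer of which had the highest signal of all members. In the longer, chr2:252850119-252864200 (14081 bp), the 9 pilocarpine animals had 2058, 561, 269 and 3883 tags in PILO and 296, 2877, 427, 507 and 3067 in PILO + KD. In the shorter, chr2:252843235-252847715, CTRL animals had 1343, 2073, 144, 116 and 180 tags, PILO animals 833, 196, 98 and 1508, and PILO + KD animals 116, 1152, 146, 174 and 1226. In each group 2 animals were high at both members (CTRL replicates 1 and 2, PILO replicates 2 and 5, PILO + KD replicate 2 and animal 211), and r was 0.999. The longer member had 201 ± 198 CPM in PILO (SD, n = 4), 145 ± 138 in PILO + KD (n = 5) and 199 ± 224 in CTRL (n = 5), group means that lay well within the spread between animals.

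The other 2 named runs had a narrower range. At chr20:49903608-49916770, CTRL replicates 2, 3 and 5 were low at both members, with 190 to 204 tags at the first and 0 to 2 at the second against at least 608 and 16 in replicates 1 and 4, and r over the pilocarpine animals was 0.777. At chr15:2329868-2340711, CTRL replicate 2 was alone low, with 2 and 11 tags, and r was 0.757. No pilocarpine animal lay on the low side at either member of the chromosome 15 run, where the lowest pilocarpine animals had 19 and 37 tags.

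Blocks of members with the same CTRL division also extended beyond 10 kb. The 2 blocks given here were chosen after the values were seen. On chromosome 6, between 138889281 and 139936499, 11 of the 21 regions were members at which CTRL replicates 3 and 5 were low and the others high, a division seen at 57 members in all. Summed over the 11 members, CTRL replicates 1 to 5 had 285, 248, 5, 315 and 7 tags. PILO animals had 170, 211, 56 and 293 tags and PILO + KD animals 40, 140, 82, 453 and 103. The summed tags of the pilocarpine animals ran from 40 to 453, all above CTRL replicates 3 and 5. Single members differed from this, and at chr6:139269351-139269927 PILO animals had 32, 3, 1 and 40 tags and PILO + KD animals 0, 4, 0, 32 and 1. In the block r over these 9 animals was above 0.5 in each of 55 pairs of members (median 0.867). These members were taken for having the same CTRL division. Other members in the span, such as chr6:139206707-139207719, had CTRL replicates 2, 3 and 5 low and are left out. Over all 19 members between 135 and 140 Mb the median r was 0.488 in 171 pairs, of which 82 were above 0.5.

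On chromosome 20, between 3513079 and 3598205, 4 of 17 regions were members at which CTRL replicate 2 alone was high. Summed over these 4, CTRL animals had 12, 177, 11, 5 and 12 tags, PILO animals 182, 165, 37 and 148, and PILO + KD animals 186, 148, 98, 107 and 96. All 9 pilocarpine animals lay above the 4 low CTRL animals, and PILO replicate 4 was the lowest of the 9. At 3 of the 4 members CTRL held only 34 to 40 tags in all, so these reached the sum of tags through the pilocarpine animals, and high pilocarpine values there follow in part from the choice. The median r over the 9 animals was 0.813 in 6 pairs. Over all 10 members of the first 5 Mb it was 0.278 in 45 pairs.

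**Figure D5:**
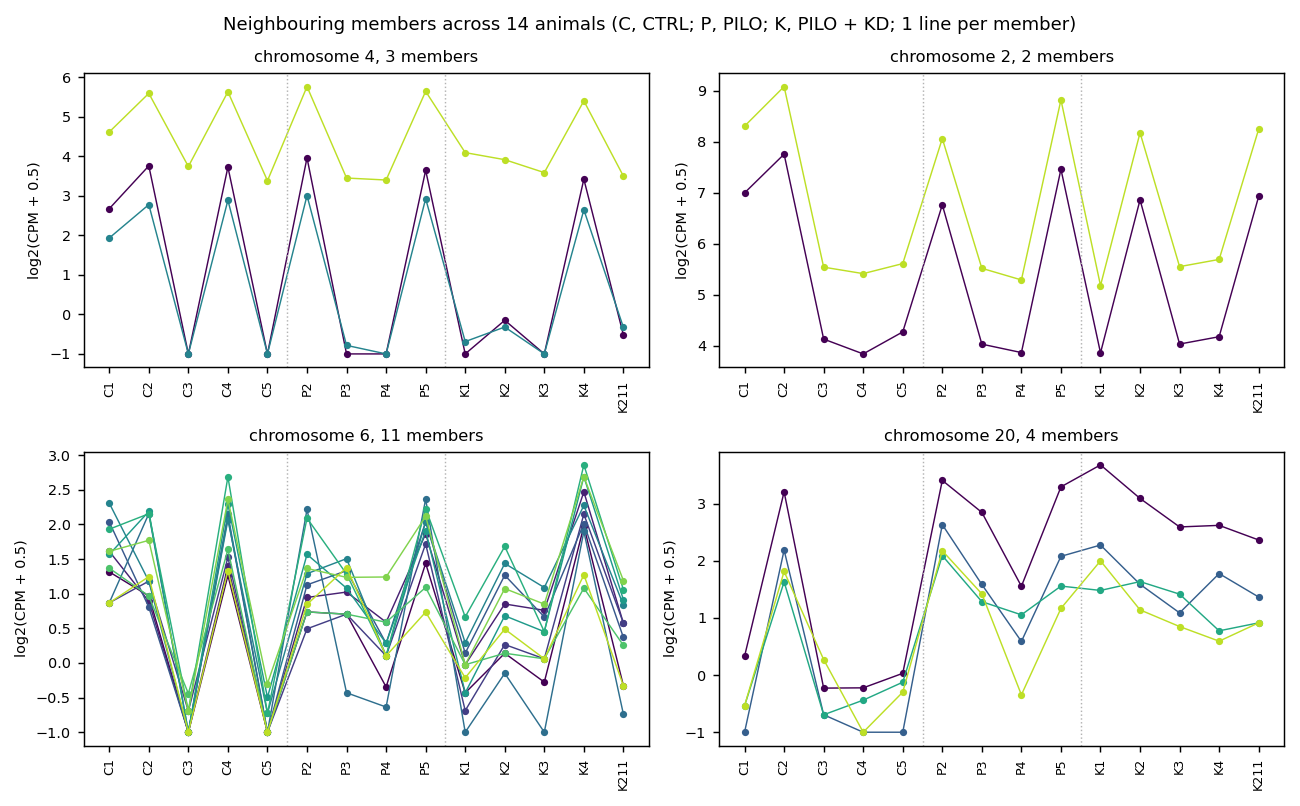
Signal of neighbouring members as log2(CPM + 0.5) in each of 14 animals, 1 line per member, for the runs on chromosome 4 (3 members) and chromosome 2 (2 members) and for blocks on chromosome 6 (11 members) and chromosome 20 (4 members). Lines of a panel rise and fall in the same animals, and in the chromosome 6 block CTRL replicates 3 and 5 (C3, C5) lie at the bottom.

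Whether the diet went with a difference at these regions was tested by PILO + KD versus PILO, a comparison that uses no CTRL value. It was fitted with edgeR over all 155092 regions that reached the median tag sum, sex chromosomes and others included, in the 9 pilocarpine animals. At an unadjusted p below 0.01, the cut-off of the study, 34 of 725 members (4.69%) differed, while 0.326% of all tested regions passed. Of these members 17 were higher in PILO + KD (0.136% of all regions) and 17 lower (0.19% of all regions). After Benjamini-Hochberg adjustment over all regions 1 member had an adjusted p below 0.05, and no other tested region had (0.000645% of all regions), while 80 members (11%) had an unadjusted p below 0.05 against 1.97% of all regions. Over 18 alternative settings and animals left out, 0 to 27 members had an adjusted p below 0.05, and in 8 of them none had. The 27 came from the fit with replicate number as a block, whose limits are given at the end. The 34 members had a larger spread within the groups than the members in general, with a median pilocarpine SD of 0.813 against 0.691, and the part of this spread in the count was not tested. At 4 of the 34 the ranges of the 2 groups did not overlap.

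The count differed between tests. With DESeq2's Wald test 11 members had p below 0.01 (0.21% of all regions), and with the 5 CTRL animals added to the fit 13 had (0.351% of all regions). Over all 725 members, ranges that did not overlap between PILO and PILO + KD were found at 8 (1.10%), against 0.642% of all regions. By this measure the members were much closer to the background than by edgeR's p value.

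The member with the smallest p was chr7:64244331-64246027. PILO animals had 1, 17, 8 and 12 tags there, and PILO + KD animals had 266, 17, 257, 18 and 472. CTRL animals had 27, 285, 445, 359 and 247. In PILO + KD 3 of 5 animals were high, and the other 2 had 1.71 and 1.82 CPM, just above the highest PILO animal at 1.4 CPM. The log2 fold change was 4.41 (SE 0.68, adjusted p = 0.0474, edgeR). Over 17 alternative settings and animals left out the adjusted p ranged from 3.86e-19 to 0.457 and was not below 0.05 in 7 of them. The lowest value came from the fit with replicate number as a block, where only 3 same-numbered pairs carried the comparison.

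The other member higher in PILO + KD with the smallest p was chr6:105389470-105389912. PILO animals had no tag there, PILO + KD animals had 0, 54, 40, 57 and 0 tags, and CTRL animals had 31, 0, 54, 22 and 26. Animals without a tag occurred in each group. By tags summed over the animals, and taking 3 tags over the PILO group as the limit, PILO + KD was at least 37.8-fold higher (adjusted p = 0.258, edgeR). This limit covers counting error only and not the spread between animals. Over 17 alternatives the adjusted p ranged from 3.86e-19, again from the replicate block, to 1.00 and was below 0.05 in 6.

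Lower in PILO + KD with the smallest p were chr13:77497162-77497637 and chr9:74425046-74425852, the latter described above. At the chromosome 13 member PILO animals had 6, 41, 25 and 5 tags and PILO + KD animals 2, 7, 1, 2 and 8, with 10, 5, 1, 44 and 13 in CTRL. The log2 fold change was -2.26 (SE 0.53, adjusted p = 1.00, edgeR), and the PILO animals with 5 and 6 tags lay within the PILO + KD range of tags. At the chromosome 9 member PILO was 43.9-fold higher by 66 against 2 tags (exact 95% interval 11.7 to 370 for counting error only), but 65 of the 66 came from PILO replicate 4, and without it the log2 fold change went from -5.30 to 0.20.

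PILO versus CTRL and PILO + KD versus CTRL share the CTRL values with the rule, so nothing is read from them. At p below 0.01, 34 members differed in PILO versus CTRL, beside 1.19% of all tested regions. Of these 20 were higher (0.713% of all regions) and 14 lower (0.482%). In PILO + KD versus CTRL 27 members differed, beside 0.92% of all tested regions, 15 of them higher (0.5%) and 12 lower (0.42%). Both comparisons used the same 5 CTRL animals.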

How the data were processed

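Methyl-Seq tag counts of 14 rats were used. The authors enriched 500 ng of DNA of each rat for methylated fragments, read single ends of 36 bp and placed them on rn4 with BWA. They called regions with MACS 1.4.0 in comparisons between samples and merged them. The paper describes dropping duplicate reads, those at 1 place in a sample, ahead of counting tags per region. The deposited counts per region and animal were not normalized, and no regions were filtered out of them. Regions were therefore selected by the authors for differing between samples, and reads that align to more than 1 place bear on which regions could be counted.

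The members and lists were chosen with earlier results of these data known. Levels are CPM on column sums, with a pseudocount of 0.5 on the log2 scale, and spread is the SD of log2(CPM + 0.5). Groups and replicate numbers came from the labels. Tests used edgeR 4.0.16 in R 4.3.3 (TMM scaling, quasi-likelihood test, no covariate), on regions at or above the median sum of tags (the 50th centile), with the 9 pilocarpine animals for PILO + KD versus PILO and all 14 animals for the comparisons with CTRL. A standard error is the fitted log2 change over the root of its F statistic. DESeq2 1.42.0 was an alternative. Scripts were tested on simulated data. All p-values are two-sided. edgeR and DESeq2 draw the spread of each region toward that of the other tested regions. At members, chosen for large spread, p values therefore reflect their own spread between animals only in part. Intervals and limits cover counting error only. Total tags per animal were 6972700 to 12391666.

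Named regions were the 6 members of largest CTRL SD, the widest gap for each size of low set, the 4 runs with most members or the longest span, the 2 members of smallest p in each direction in PILO + KD versus PILO, the 2 members of largest pilocarpine SD, those of highest and lowest mean, and the regions beside the threshold. The alternative sum of tags over CTRL alone took regions at or above the median CTRL sum. The blocks on chromosomes 6 and 20 and the run of opposite sign were named after their values were seen. Alternatives covered the pseudocount, scaling, filter, test, animals left out, flow cell, replicate block and neighbour distance.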

Additional observations from a re-analysis of the deposited data

Results flagged for a closer look

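A sample was marked where the gap between the highest or lowest animal of a group and the nearest other animal was a large part of the group's range on the log2 scale. Chance marks about 1 in 20 groups. Among 69 sets of a named region and a group, 17 were marked, in 11 regions, 4 in CTRL, 9 in PILO and 4 in PILO + KD. Since the regions were named for large spread, these marks are a description.

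In CTRL the gap took 0.941 of the range at chr5:168727248-168732825 (replicate 3 lowest, 11 tags), 1.00 at chr9:74425046-74425852 (replicate 4 highest, 84 tags), 0.754 at chr7:64244331-64246027 (replicate 1 lowest, 27 tags) and 0.926 at chr20:19201097-19202137 (replicate 5 lowest, 2 tags).

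In PILO it took 0.879 at chr4:4659968-4660996 (replicate 5 lowest), 1.00 at chr3:99692805-99693652 (replicate 5 highest, with 1 tag), 0.857 at chr6:1147673-1148538 (replicate 3 lowest) and 0.95 at chr5:168727248-168732825 (replicate 3 highest). The share was 0.923 at chr9:74425046-74425852 (replicate 4 highest), 0.996 at chr20:49915369-49916770 (replicate 3 lowest, 2 tags), 0.872 at chr7:64244331-64246027 (replicate 2 lowest), 0.957 at chr20:19201097-19202137 (replicate 3 lowest) and 0.947 at chr13:66398779-66399080 (replicate 2 lowest), the region just outside the threshold.

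In PILO + KD it took 0.808 at chr4:179951866-179952254 and 0.813 at chr4:179956487-179956916, neighbours in 1 run at which replicate 4 was highest. It took 0.865 at chr3:99692805-99693652 (replicate 4 highest) and 0.811 at chr6:1147673-1148538 (replicate 3 lowest).

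Over all members, PILO + KD replicate 2 had 0.399% of its tags in members, the highest of its group (gap 0.71 of the range). PILO replicate 4, with 32 members without a tag, was the highest of PILO (gap 0.917).

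Of the named members, 6 had p below 0.01 in PILO + KD versus PILO (edgeR). The log2 fold changes were 4.88 at chr3:99692805-99693652, -2.20 at chr5:168727248-168732825, -5.30 at chr9:74425046-74425852, 4.41 at chr7:64244331-64246027, 7.85 at chr6:105389470-105389912 and -2.26 at chr13:77497162-77497637. The values at the members with 0 to 2 tags in a whole group, on chromosomes 3, 6 and 9, depend on edgeR's prior count. At chr3:99692805-99693652, 55 of 58 PILO + KD tags came from replicate 4, and without it the log2 fold change was 1.17.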

How the results depend on the processing

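Counts of few tags limit the choice of members, and a spread on the log2 scale depends on the pseudocount. Of the 725 members, 457 were chosen again with a pseudocount of 2, 257 with 5, 43 with at least 10 tags in every animal, 182 by variance over counting variance, 476 from the 3 CTRL animals of the largest flow cell, and 513 to 602 with 1 CTRL animal left out. The causes of the moves below were not tested.

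The median pilocarpine SD of the chosen regions (0.691) was 0.565, 0.438 and 0.326 with pseudocounts of 1, 2 and 5 (all regions 0.293, 0.231 and 0.146), 0.578 without a filter (all regions 0.383), 0.453 with at least 10 tags (0.287), 0.441 by variance over counting variance (0.343), 0.645 from the largest flow cell, and 0.627 to 0.698 with 1 animal left out. Members with 1 low CTRL animal (291) numbered 131 with pseudocount 5, 476 without a filter, 181 with at least 10 tags, 99 by the variance ratio, 488 from the 3 CTRL animals of the largest flow cell, where a low set of 1 is 1 of 2 possible sizes, and 336 to 380 with 1 CTRL animal left out.

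Members next to members (31) numbered 50 with pseudocount 5, 17 with at least 10 tags, 90 by the variance ratio, 16 within 2 kb, and 23 to 35 with 1 CTRL animal left out. Their median r (0.927) was 0.879 with pseudocount 2, 0.817 without a filter, 0.820 within 2 kb, 0.825 within 100 kb, and 0.789 to 0.942 with 1 animal left out.

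Members with p below 0.01 in PILO + KD versus PILO (34) numbered 6 of 43 with at least 10 tags (0.232% of all regions), 11 with DESeq2 (0.21%), 13 with all 14 animals (0.351%) and 62 in the largest flow cell alone (0.51% of all regions). With 1 animal left out they numbered 30 to 52, beside 0.26% to 0.589% of all regions (52 without animal 211, beside 0.317%). In PILO versus CTRL (34 of 725, 4.69%) they numbered 64 without a filter (1.17% of all regions) and 75 in the largest flow cell (1.41%). With at least 10 tags they numbered 4 of 43 (9.3%, against 1.02%), and with DESeq2 10 of 721 (1.39%, against 1.03%). With 1 animal left out they numbered 32 to 58, beside 0.932% to 1.43% of all regions (58 without CTRL replicate 1, 52 without replicate 2). In PILO + KD versus CTRL (27 of 725, 3.72%) they numbered 56 without a filter (0.946%) and 75 in the largest flow cell (0.612%). With at least 10 tags they numbered 5 of 43 (11.6%, against 0.675%), and with DESeq2 4 of 721 (0.555%, against 0.785%). With 1 animal left out they numbered 22 to 52, beside 0.634% to 1.09% of all regions (52 and 50 without CTRL replicates 1 and 2). Adjusted p was below 0.05 in PILO + KD versus PILO at 6 members (18 regions in all) in the largest flow cell and at 3 (5 in all) with flow cell as a covariate. The largest flow cell alone and the sum of tags over CTRL alone were added after seeing the data, and the latter moved no result it was run on by more than its limit. The direction turned at chr9:74425046-74425852 without PILO replicate 4 (0.20, range -5.77 to 0.20 over animals left out) and at chr5:168727248-168732825 without PILO replicate 3 (0.15, range -2.52 to 0.15). DESeq2 gave no p value at these 2 members and at chr3:99692805-99693652, and of the 6 named members with p below 0.01 only the chromosome 5 member had 10 tags in every animal.

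Replicate numbers recur between groups, and the labels do not say whether they pair animals. Correlations of same-numbered animals ran from -0.282 to 0.275, and 4 of 13 animals correlated best with their own number. Between PILO and PILO + KD the median was 0.208 for same numbers (3 pairs) and -0.0248 for other numbers (17 pairs). It was 0.0679 against -0.0129 between CTRL and PILO, and 0.0393 against -0.0205 between CTRL and PILO + KD. Whether the numbers pair animals was not tested. With the replicate block 91, 60 and 44 members had p below 0.01 in PILO + KD versus PILO, PILO versus CTRL and PILO + KD versus CTRL, beside 0.685%, 1.28% and 0.614% of all regions, and 27 members (74 regions in all) had an adjusted p below 0.05 in PILO + KD versus PILO. In that comparison only replicates 2, 3 and 4 occur in both groups. The blocked fit therefore rests on 3 pairs, which leave little to measure the spread between animals by, and nothing is read from its p values.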
